A study of Oryctolagus cuniculus with 12 samples.

Results

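The 10 genes described here encode enzymes and one regulator of the cell's defence against reactive oxygen: HMOX1, NQO1, GCLC, GCLM, TXNRD1, TXNIP, SOD1, SOD2, SOD3 and CAT. They were taken by gene name from a table of 29076 genes listed for rabbit cornea. All 10 were found, each under 1 entry, and all 10 passed the filter on low counts. RNA was measured in 12 libraries, 3 in each of 4 groups labelled control, blue_light (blue light), GL and RL, of which the last pair is not written out in full in the labels. All groups came from the cornea of Oryctolagus cuniculus aged 6 months on a normal diet, and the labels name no strain or genotype. The treatment entry, exposure to light over 6 weeks, stands on every library including the controls, so what light the controls received is not given in the sources used here. Nor is it stated whether each library is a different animal: the p-values describe spread among these libraries, and that spread may be technical.

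NRF2, encoded by NFE2L2, is a transcription factor that KEAP1 marks for degradation in unstressed cells. Oxidants and electrophiles modify KEAP1, NRF2 then accumulates, and genes such as HMOX1, NQO1, GCLC, GCLM and TXNRD1 are transcribed. The cornea is transparent and meets light and oxygen directly, and it is known for high levels of antioxidant enzymes. The question put to the data was whether any light group differed from control, or from another light group, in these genes.

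None of the 10 genes passed edgeR's quasi-likelihood test with Benjamini-Hochberg (BH) adjustment over all 18171 genes tested, in any comparison between groups. For blue_light against control 0 of 10 passed an adjusted p of 0.05, where 0.0165% of all genes did. For GL against control 0 of 10 passed, beside 0.055% of all genes, and for RL against control 0 of 10, beside 0.011%. Between light groups none of the 10 passed either, beside 0.0495% of all genes for blue_light against GL, 0.011% for blue_light against RL and 0.0715% for GL against RL. The mean of the light groups against control (0.011% of all genes) and the test for any difference among the 4 groups (0.0605%) also called none. All comparisons with control share the same 3 control libraries.

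At an unadjusted p below 0.05, which corrects for nothing, the same fit gave 0 members for blue_light against control, beside 3.26% of all genes. GL against control gave 3 members (SOD3, NQO1 and TXNRD1), beside 8.1% of all genes. RL against control gave 1 (GCLC), beside 4.74%. Blue_light against GL gave 2 (SOD3 and GCLC), beside 14.9%, GL against RL gave 1 (GCLC), beside 8.6%, and blue_light against RL gave 0, beside 5.14%. The mean of the light groups gave 1 (TXNIP), beside 4.2%, and any difference gave 2 (SOD3 and GCLC), beside 7.79%. DESeq2, run beside edgeR on the same 18171 genes, called 0 members in each comparison with control. Over all genes it called 29 for blue_light, 147 for GL, 87 for RL and 55 for the mean of the light groups. It called 1 member, SOD3, for blue_light against GL, beside 372 of 18171 genes, and for any difference, beside 262.

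Over the 10 genes the median log2 difference from control was 0.01 in blue_light, where the median of all genes tested was also 0.01. It was 0.25 in GL, beside -0.02 for all genes, and 0.13 in RL, beside 0.00449. Members stood on both sides of 0 in every light group, with 5 above and 5 below in blue_light, 6 above and 4 below in GL, and 6 above and 4 below in RL. Of all genes tested 51.8%, 48.2% and 50.5% were above 0, in the same order of groups. The 5 NRF2 target enzymes did not share a direction in any of the 3 light groups.

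**Figure D1:**
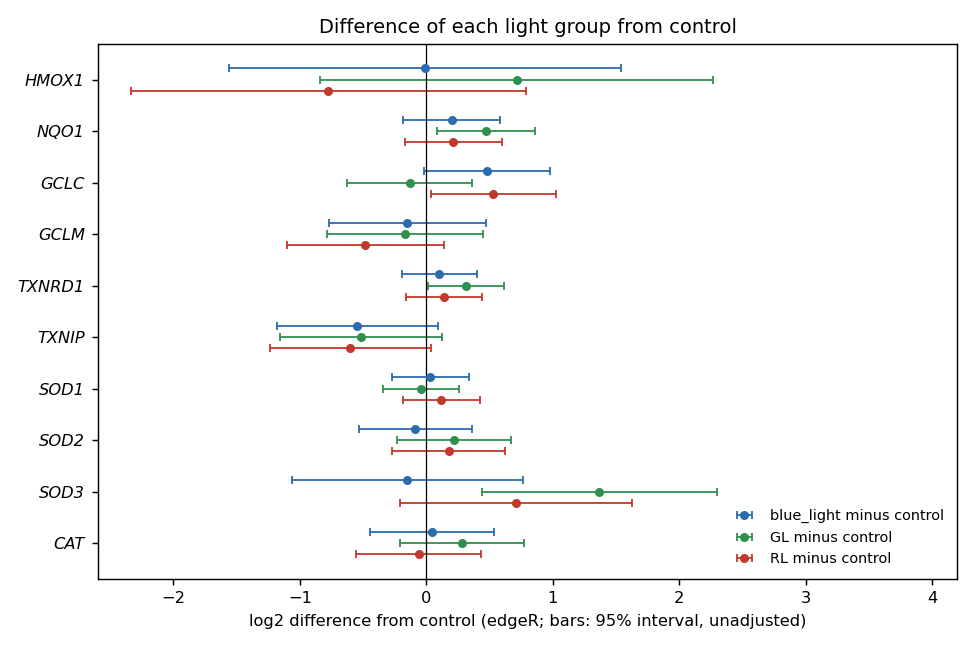
Log2 difference of each light group from control (x axis) for the 10 genes (y axis), as points with unadjusted 95% intervals from edgeR. The SOD3 interval for GL runs from 0.44 to 2.30 and those of NQO1 and TXNRD1 for GL and GCLC for RL lie above 0, whereas no gene passed after adjustment over all genes.

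Total counts ran from 40.9 to 64.7 M (mega) per library, and GL held 61.6 to 64.7 M per library against 44.4 to 56.9 M in control. These ranges do not overlap, so in GL against control the group and library size cannot be told apart. Counts were not independent fragments: low values stepped by about 3.83 counts. The detection floor was taken as 3 fragments, which stood for 0.178 to 0.281 counts per M of total counts, before TMM scaling. CPM elsewhere is counts per M of TMM-scaled library size. Libraries fell into a set of 5 with 2389 to 2563 genes at counts of 1 to 20 (all blue_light, control 1 and RL 1) and a set of 7 with 767 to 1461 such genes. Every blue_light library is in the first set and only 1 control is, so apart from that control blue light and the set cannot be told apart. Every GL library is in the second set, so in blue_light against GL the group and the set cannot be told apart. The cornea label matched its markers in every library, with 9 corneal epithelial markers summing to 24462 to 44391 CPM and 9 keratocyte and stromal markers to 35789 to 72644 CPM. Lens markers summed to 646 to 15340 CPM and 14 retinal markers to 10.1 to 712 CPM, highest in GL 3, blue_light 1 and control 2. In bulk tissue, fewer cells of a type and less RNA per cell cannot be told apart.

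Levels between genes were compared in FPKM, which divides by transcript length. Averaged over the 12 libraries, the level of SOD1 was highest, at 346 FPKM (302 to 391), above 98.9% of the genes tested. SOD3 at 60.8 FPKM, SOD2 at 56.6, TXNRD1 at 53.6 and TXNIP at 44.3 followed, and the ranges of neighbours in that order overlapped. NQO1 stood at 26.2 FPKM, GCLC at 19.0 and CAT at 10.9, again each overlapping the next. GCLM, at 1.63 FPKM (1.08 to 2.09), lay below every CAT value, and HMOX1 at 0.939 FPKM (0.269 to 2.05) was the lowest, above 26.5% of the genes tested and overlapping GCLM. HMOX1 varied most between libraries, with a highest value 7.62 times its lowest, followed by SOD3 at 5.47 times, while SOD1 varied 1.29 times and TXNRD1 1.34 times.

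**Figure D2:**
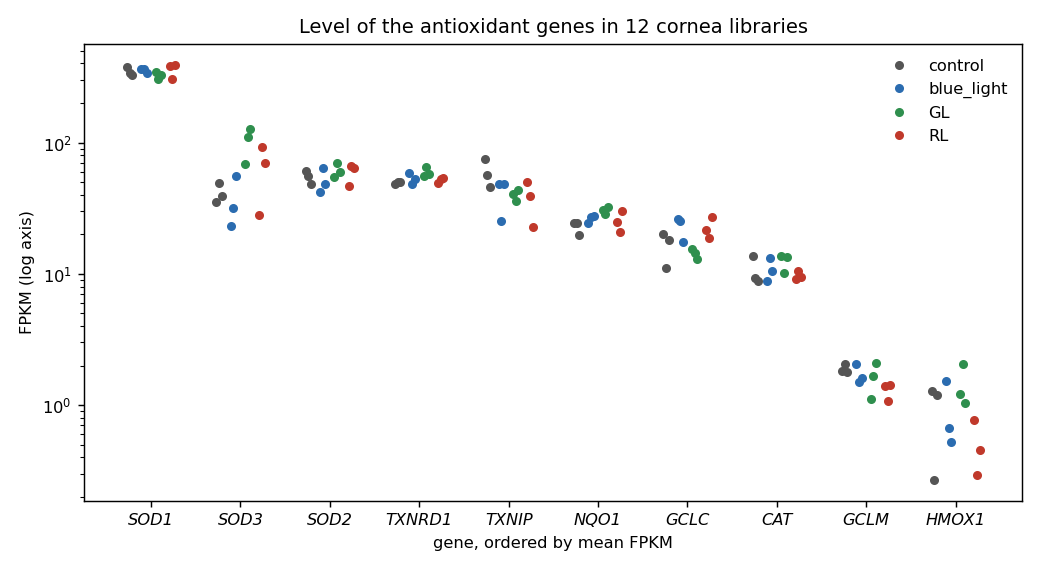
FPKM on a log axis for each of the 10 genes, ordered by mean level, with 1 point per library coloured by group. SOD1 lies at 302 to 391 FPKM in all 12 libraries, and HMOX1 and GCLM lie at or below 2.09.

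HMOX1 encodes heme oxygenase 1, which breaks heme down to biliverdin, iron and carbon monoxide and is among the NRF2 targets most widely read as a stress marker. Its level was 2.05, 0.455 and 1.93 CPM in control 1 to 3 and 2.43, 1.10 and 0.859 CPM in blue_light. In GL it was 2.03, 3.46 and 1.78 CPM and in RL 1.28, 0.526 and 0.780 CPM. Control 2 was the lowest library and GL 2 the highest. The 3 light groups all overlapped control, and only GL and RL did not overlap each other. Its counts of 26 to 208 per library stood for fewer fragments, given the step of about 3.83 counts. The differences of HMOX1 from control were the least precise of the 10. They were -0.01 log2 in blue_light (95% interval -1.56 to 1.54), 0.71 in GL (-0.84 to 2.27) and -0.78 in RL (-2.34 to 0.79). GL exceeded RL by 1.49 log2 (SE 0.73, edgeR adjusted p = 0.582). Leaving out single libraries moved the GL difference between 0.29 (without control 2) and 1.03 (without control 1), and the blue_light difference between -0.59 (without blue_light 1) and 0.31 (without control 1). The RL difference ran from -1.21 (without control 2) to -0.45 (without control 1). With library size as a covariate, which did not overlap between GL and control, the GL difference was 2.08 (SE 0.81, edgeR adjusted p = 0.853) and the RL difference -0.01. Without the 3 libraries with most retinal transcripts the difference was -1.02 in blue_light, 0.47 in GL and -1.21 in RL, and with the library set as a covariate it was -0.55 in blue_light.

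NQO1 encodes a quinone reductase that passes electrons in pairs to quinones and so avoids semiquinone radicals. Control libraries held 32.7, 33.6 and 26.9 CPM and blue_light libraries 32.4, 37.1 and 37.6 CPM. GL libraries held 42.5, 40.4 and 46.4 CPM and RL libraries 34.1, 30.5 and 43.4 CPM. Every GL library was above every control and every blue_light library, while blue_light and RL overlapped control. The GL mean of 43.1 ± 3.07 CPM (SD, n = 3) stood against 31.1 ± 3.64 in control, a difference of 0.47 log2 (SE 0.18, 95% interval 0.09 to 0.86, edgeR adjusted p = 0.588). The differences were 0.20 log2 in blue_light (-0.18 to 0.59) and 0.21 in RL (-0.17 to 0.60).

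GCLC and GCLM encode the catalytic and the regulatory subunit of glutamate-cysteine ligase, the rate-limiting enzyme of glutathione synthesis. GCLC was at 71.9, 41.1 and 65.7 CPM in control, 92.2, 93.2 and 63.9 under blue_light, 58.0, 55.2 and 49.9 in GL, and 80.5, 73.5 and 104 in RL. All 3 RL libraries were above all controls, 2 of 3 blue_light libraries were, and GL lay within the control range. RL exceeded control by 0.53 log2 (SE 0.23, 95% interval 0.03 to 1.03, edgeR adjusted p = 1). Blue_light exceeded control by 0.48 (-0.02 to 0.98, adjusted p = 1), and GL differed by -0.13 (-0.63 to 0.36). GL stood apart from both other light groups, with no overlap: blue_light exceeded it by 0.61 log2 (SE 0.23, adjusted p = 0.276) and RL was above it, at -0.66 for GL minus RL (SE 0.23, adjusted p = 0.529). Control 2 was the lowest GCLC library, and without it the RL difference was 0.32, the blue_light difference 0.27 and the GL difference -0.34. Without all 3 libraries with most retinal transcripts, control 2 among them, blue_light minus control was 0.19. GL minus control was 0.19 with library size as a covariate and 0.03 among the 7 libraries with few rare transcripts.

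GCLM showed another order. Control libraries held 7.95, 9.28 and 7.75 CPM of it, and the others 8.71, 6.64 and 7.16 in blue_light, 5.02, 7.57 and 9.62 in GL, and 6.22, 5.11 and 6.55 in RL. All RL libraries were below all controls and below all blue_light libraries, and GL spanned both. The RL difference of -0.48 log2 (SE 0.29, 95% interval -1.10 to 0.14) did not pass the test (edgeR adjusted p = 1). Lens markers (14 genes) summed to 5217 to 8299 CPM in control and 646 to 3141 in RL. Vessel markers (4 genes) summed to 79.8 to 95.6 CPM in control and 113 to 142 in RL. Adipocyte or muscle markers (3 genes) summed to 6.68 to 81.6 CPM in control and 1.79 to 3.34 in RL. None of these marker sums overlapped between control and RL. Lens and vessel markers did not overlap between control and GL either, whereas GCLM did. Their part in the GCLM values was not tested. The 2 subunits thus lay on opposite sides of control in RL. Their FPKM ratio, GCLC over GCLM, a quantity chosen after the values were seen and not tested, was 10.9, 5.32 and 10.2 in control and 15.6, 17.3 and 19.1 in RL. In blue_light it was 12.7, 16.9 and 10.7, and in GL 13.9, 8.76 and 6.23.

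TXNRD1 encodes the cytosolic thioredoxin reductase, a selenoenzyme that uses NADPH to keep thioredoxin reduced. Its control values lay close together, at 85.2, 92.0 and 88.7 CPM. Values were 102, 88.1 and 95.3 CPM in blue_light, 101, 121 and 109 in GL, and 89.1, 102 and 102 in RL. All GL libraries were above all controls, and the other light groups overlapped control. The GL difference was 0.31 log2 (SE 0.14, 95% interval 0.01 to 0.61, edgeR adjusted p = 0.610), against 0.10 in blue_light (-0.20 to 0.40) and 0.14 in RL (-0.16 to 0.44). By an exact permutation test over all 15400 partitions of the 12 libraries, TXNRD1 had the smallest p of the 10 members for any difference among groups, at 0.0314 before any adjustment. The exact p was 0.0672 for NQO1, 0.0716 for GCLC and 0.0775 for SOD3. In edgeR's test of any difference TXNRD1 had an unadjusted p of 0.198 and an adjusted p of 0.718.

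TXNIP binds reduced thioredoxin and limits its activity, and its transcript also responds to glucose. Control libraries held 182, 141 and 112 CPM. The values were 115, 62.9 and 120 in blue_light, 101, 91.7 and 111 in GL, and 124, 103 and 59.1 in RL. Control 1 was the highest library, GL lay below every control by a margin under 1 CPM at its nearest, and blue_light and RL overlapped control. The mean of the light groups differed from control by -0.55 log2 (SE 0.23, 95% interval -1.06 to -0.05, edgeR adjusted p = 1.0). The single differences were -0.55 in blue_light (-1.18 to 0.09), -0.52 in GL (-1.16 to 0.12) and -0.60 in RL (-1.24 to 0.04). With the library set as a covariate they were -0.90, -0.31 and -0.61, with an adjusted p of 1 in blue_light. Without control 1 the GL difference was -0.32, the RL difference -0.39 and that of the mean of the light groups -0.35. Without blue_light 2 the blue_light difference was -0.30, and without RL 3 the RL difference was -0.35.

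**Figure D3:**
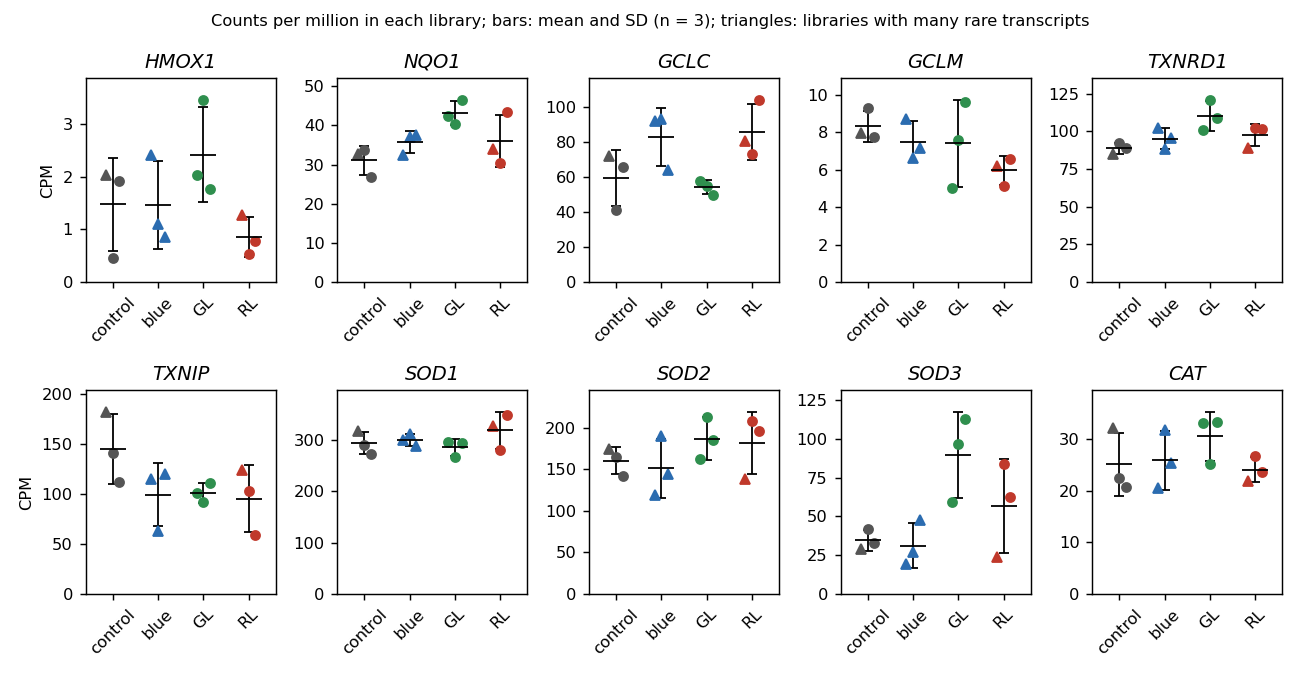
CPM (y axis) of each gene in every library, by group, with the mean and SD of 3 libraries as bars and triangles for the 5 libraries with many rare transcripts. SOD3 is at 59.0 to 113 in GL and 29.2 to 42.2 in control, while SOD1 overlaps between all groups.

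SOD3, the extracellular superoxide dismutase, is secreted and held in the matrix, and it was the member with the largest difference from control in the edgeR fit of all libraries. The deposited table places it at 15391093 to 15391921 on the plus strand of rabbit sequence NC_013670.1, in a build that is not named there. Its control libraries held 29.2, 42.2 and 32.8 CPM and its blue_light libraries 19.1, 27.1 and 47.5 CPM. GL libraries held 59.0, 96.4 and 113 CPM and RL libraries 23.9, 83.6 and 62.5 CPM. All GL libraries were above all controls and above all blue_light libraries, whereas RL spread from below the controls to within the GL range. GL averaged 89.5 ± 27.6 CPM against 34.7 ± 6.70 in control (SD, n = 3 each). The difference was 1.37 log2, or 2.58-fold (SE 0.43, 95% interval 0.44 to 2.30, edgeR adjusted p = 0.508).

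For SOD3 in blue_light minus GL the log2 difference was -1.52 (SE 0.43, 95% interval -2.45 to -0.58, edgeR adjusted p = 0.247). DESeq2 called that difference (-1.52, SE 0.42, adjusted p = 0.0270) and any difference among groups (adjusted p = 0.0486), but not GL against control (1.37, adjusted p = 0.0920). All blue_light libraries are in the set with many rare transcripts and all GL libraries in the other, so group and set cannot be told apart there. The median of SOD3 was 27.1 CPM in the 5 libraries with many rare transcripts and 62.5 CPM in the other 7. The RL difference from control was 0.71 (SE 0.42, 95% interval -0.21 to 1.63) and it was 1.07 without RL 1, the lowest RL library, and 0.33 without RL 2, the highest. Blue_light minus control was -0.15 (-1.07 to 0.76), and its sign was not stable: it was 0.46 with the library set as a covariate, 0.27 without the 3 libraries with most retinal transcripts, 0.10 without blue_light 1 and -0.59 without blue_light 3.

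Several library measures also separated GL from control. The summed level of the 9 stromal markers was 46659 to 47926 CPM in control, 35789 to 59676 in blue_light, 60925 to 66283 in GL and 44748 to 72644 in RL, so that GL did not overlap control in it either. Epithelial markers summed to 24462 to 33099 CPM in control and 38814 to 39021 in GL, also without overlap. Library size was higher in GL without overlap with control, as given above, so size and GL cannot be told apart in that comparison. With log2 library size as a covariate the SOD3 difference was 0.39 in GL (SE 0.33, edgeR adjusted p = 0.909) and 0.04 in RL. Among the 7 libraries with few rare transcripts alone it was 1.26 in GL (SE 0.29, adjusted p = 0.224), and with the set as a covariate 1.04. The part of the marker levels in the SOD3 difference was not tested.

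**Figure D4:**
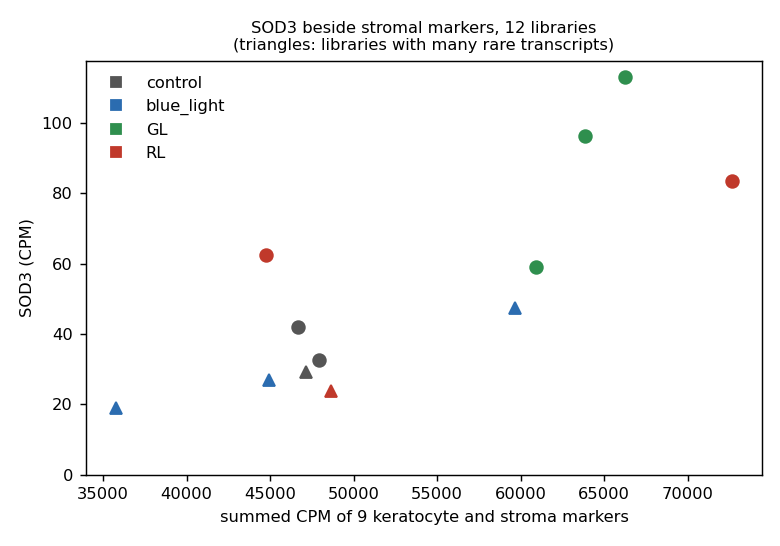
SOD3 in CPM (y axis) against the summed CPM of 9 keratocyte and stroma markers (x axis) in the 12 libraries, coloured by group, with triangles for libraries with many rare transcripts. The 3 GL libraries and RL 2 lie at marker sums of 60925 or more and at 59.0 to 113 CPM of SOD3. RL 3 lies at a marker sum of 44748 and 62.5 CPM of SOD3, and blue_light 3 at 59676 and 47.5 CPM.

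SOD1, the copper-zinc superoxide dismutase of the cytosol, was the most even member. It was at 316, 290 and 273 CPM in control, 300, 311 and 287 under blue_light, 296, 266 and 293 in GL, and 326, 279 and 348 in RL. All groups overlapped, and the intervals of the difference from control were -0.27 to 0.33 log2 in blue_light, -0.34 to 0.26 in GL and -0.19 to 0.42 in RL. A copy annotated as the same enzyme, LOC108176430, took at most 0.223% of the SOD1 count.

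SOD2, the manganese enzyme of mitochondria, is a known target of inflammatory signalling. Values were 174, 165 and 142 CPM in control, 119, 189 and 144 under blue_light, 162, 213 and 185 in GL, and 138, 208 and 196 in RL. All groups overlapped, with differences from control of -0.09 log2 in blue_light (-0.54 to 0.36), 0.22 in GL (-0.23 to 0.67) and 0.18 in RL (-0.27 to 0.63). CAT, catalase of the peroxisome, breaks down the hydrogen peroxide that dismutases make. It stood at 32.2, 22.5 and 20.7 CPM in control, 20.5, 31.9 and 25.4 under blue_light, 33.2, 25.1 and 33.3 in GL, and 21.9, 26.7 and 23.6 in RL, overlapping throughout. Its differences from control were 0.05 log2 in blue_light (-0.45 to 0.54), 0.28 in GL (-0.21 to 0.78) and -0.06 in RL (-0.55 to 0.43). Small differences of these 3 genes changed sign with the setting: with the library set as a covariate blue_light minus control was -0.04 for SOD1, 0.02 for SOD2 and -0.08 for CAT, and among the 7 libraries alone RL minus control was 0.22 for CAT.

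Complete separation of 2 groups of 3 libraries was common in this table, so the counts of separated members are given against it. For GL against control 3 of 10 members were higher in every GL library (NQO1, TXNRD1 and SOD3) and 1 was lower (TXNIP), where 9.21% of all genes were separated upward and 9.25% downward. Lens markers (753 to 3444 CPM in GL) and vessel markers (97.4 to 127 CPM in GL) did not overlap control either, as given above for stromal and epithelial markers, and their part in these 4 genes was not tested. For RL against control 1 member was higher (GCLC) and 1 lower (GCLM), beside 3.66% and 4.66% of all genes. For blue_light against control all 10 members overlapped, beside 4.91% of all genes separated upward and 4.09% downward. For blue_light against GL 1 member was higher and 2 lower, beside 14.6% and 12.3% of all genes. Blue_light against RL separated 1 member upward (5.87% of all genes) and 0 downward (3.13%), and GL against RL separated 1 in each direction (6.88% and 6.33%).

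The wider redox machinery was read from 12 gene lists with 226 names, of which 170 genes were tested. The 10 members are among the 170 and are counted again here and in the lists that follow. None of the 170 passed the edgeR threshold in any of the 8 comparisons. At an unadjusted p below 0.05 there were 10 of 170 for blue_light against control (5.88%), 12 for GL (7.06%), 9 for RL (5.29%) and 36 for blue_light against GL (21.2%), where all genes gave the shares stated above. These counts include the members already named: NQO1, TXNRD1 and SOD3 for GL, GCLC for RL, and SOD3 and GCLC for blue_light against GL.

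Among 32 NRF2 core targets tested, the median log2 difference from control was -0.07 in blue_light, with 12 above 0 and 20 below. It was 0.16 in GL, with 22 above and 10 below, and 0.15 in RL, with 21 above and 11 below. Of all genes tested 51.8% were above 0 in blue_light, 48.2% in GL and 50.5% in RL, also for the lists that follow. Genes of a list share the same libraries, and a joint shift of a list was not tested. EPHX1, a microsomal epoxide hydrolase, had the smallest p for any difference of the 170. It averaged 97.8 ± 17.8 CPM in control, 66.6 ± 17.9 under blue_light, 136 ± 37.7 in GL and 76.0 ± 8.29 in RL (adjusted p = 0.429).

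The 16 regulators of NRF2 had medians of -0.06, -0.01 and 0.00737 log2 in blue_light, GL and RL. NFE2L2 itself averaged 170 ± 48.7 CPM in control, 191 ± 67.9 under blue_light, 164 ± 1.96 in GL and 198 ± 42.2 in RL, with adjusted p of 1 for blue_light, 0.977 for GL and 1 for RL. KEAP1, its repressor, averaged 69.5 ± 7.17, 66.6 ± 16.2, 89.9 ± 8.53 and 77.5 ± 18.6 CPM in the same order of groups. NFE2L2 and KEAP1 are named for their role and not by the rule for named genes. BACH1, which competes with NRF2 at target promoters, averaged 44.5 ± 19.8, 83.4 ± 27.3, 34.5 ± 14.8 and 78.4 ± 11.8 CPM. It did not pass for any difference among the groups (edgeR adjusted p = 0.595). PALB2, a KEAP1-binding partner better known in DNA repair, averaged 12.4 ± 3.25, 14.9 ± 1.75, 7.60 ± 3.05 and 11.5 ± 3.87 CPM.

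Of the heme and iron list, 12 genes had medians of 0.01, 0.17 and -0.05 log2 in blue_light, GL and RL. FLVCR1, a heme exporter, averaged 17.1 ± 1.03 CPM in control, 26.1 ± 4.47 under blue_light, 11.01 ± 1.93 in GL and 14.2 ± 7.60 in RL. SLC40A1, the iron exporter ferroportin, averaged 26.5 ± 3.57, 33.7 ± 8.45, 39.8 ± 10.7 and 23.6 ± 0.776 CPM. The 22 genes of glutathione synthesis, reduction and peroxidases had medians of -0.02, 0.09 and 0.04, and GLRX, a glutaredoxin, averaged 24.7 ± 4.41, 40.7 ± 14.6, 31.4 ± 1.97 and 24.8 ± 6.53 CPM. The 7 glutathione S-transferases had medians of 0.09, -0.11 and -0.000125. GSTO1 of that family averaged 32.9 ± 2.18, 39.6 ± 7.95, 23.2 ± 1.75 and 35.3 ± 8.53 CPM, and GSTZ1 averaged 38.7 ± 12.0, 32.8 ± 2.87, 52.2 ± 5.05 and 34.3 ± 7.68 CPM.

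The 21 thioredoxin and peroxiredoxin genes had a median of -0.15 log2 in blue_light, with 7 above 0 and 14 below, 0.18 in GL, with 16 above and 5 below, and 0.14 in RL, with 16 above and 5 below. TXNRD2, the mitochondrial reductase, averaged 26.8 ± 1.88 CPM in control, 18.5 ± 2.87 under blue_light, 28.6 ± 2.04 in GL and 21.9 ± 5.58 in RL. NXN, nucleoredoxin, averaged 54.3 ± 5.63, 45.9 ± 5.40, 73.0 ± 15.6 and 50.7 ± 13.6 CPM. The 10 dismutase, catalase and partner genes had medians of -0.10, 0.14 and 0.09, and the peroxisomal import receptor PEX5 averaged 47.5 ± 12.9, 30.1 ± 6.24, 43.6 ± 10.1 and 36.4 ± 12.9 CPM. The 11 TXNIP and glucose-sensing genes had medians of -0.04, -0.19 and 0.03, and hexokinase HK2 averaged 46.6 ± 6.21, 41.9 ± 7.58, 49.6 ± 8.99 and 66.8 ± 28.6 CPM.

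Sources of reactive oxygen, 23 genes, had medians of 0.13, -0.10 and 0.14 log2 in blue_light, GL and RL. DUOX1, an oxidase that makes hydrogen peroxide at epithelial surfaces, averaged 119 ± 24.2 CPM in control, 171 ± 46.5 under blue_light, 86.4 ± 20.9 in GL and 108 ± 14.5 in RL. Blue_light exceeded GL in it by 0.99 log2 (SE 0.24, edgeR adjusted p = 0.224). PTGS2, the inducible cyclooxygenase, averaged 21.3 ± 5.34, 31.8 ± 26.3, 10.7 ± 6.25 and 41.2 ± 14.3 CPM. The 19 genes of oxidative damage and stress had medians of -0.20, 0.08 and 0.01. DDIT3, a transcription factor of the stress response, averaged 36.5 ± 7.30, 27.9 ± 2.72, 23.8 ± 1.69 and 26.6 ± 3.75 CPM, and APEX1, a base excision repair nuclease, averaged 55.5 ± 4.43, 45.9 ± 4.60, 58.7 ± 2.44 and 65.2 ± 5.48 CPM.

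The metallothionein list was thinly covered, with 3 genes tested and medians of 0.13, 0.02 and 0.000735 log2. It also names MTF1 and SLC30A1, which are not metallothioneins. MT3 averaged 144 ± 29.8, 158 ± 52.2, 170 ± 12.3 and 129 ± 45.3 CPM. The regulator MTF1 stood at 0.29, 0.02 and 0.000735 log2 from control, so the GL and RL medians of the list are its values. The 10 enzyme crystallins and light absorbers of the cornea had medians of 0.04, 0.33 and 0.20, with 5, 10 and 9 of 10 above 0, and the epithelial markers were higher in the same GL libraries. Their part in these medians was not tested. ENO1, a glycolytic enzyme, averaged 3957 ± 663, 2690 ± 745, 4581 ± 439 and 4822 ± 1596 CPM, and LDHB, a lactate dehydrogenase, averaged 8103 ± 1114, 7990 ± 1145, 11009 ± 562 and 10123 ± 2243 CPM.

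**Figure D5:**
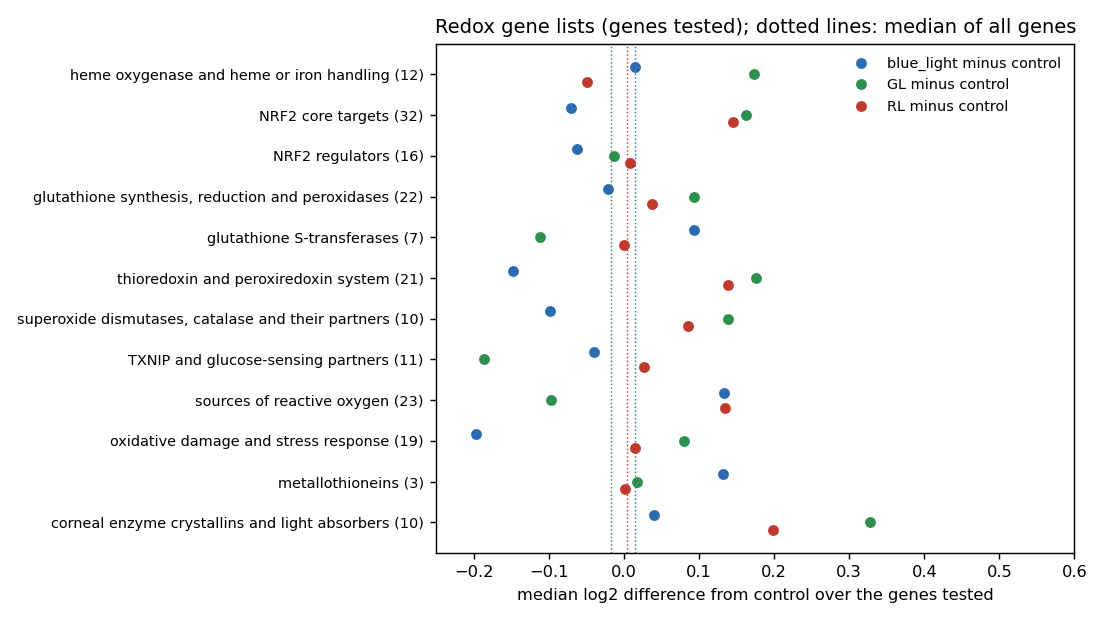
Median log2 difference from control (x axis) over the tested genes of 12 redox gene lists (y axis, number tested in brackets), 1 point per light group, with dotted lines at the median of all genes. The enzyme crystallins of the cornea lie at 0.33 in GL and the oxidative damage list at -0.20 in blue_light, and no gene of any list passed the edgeR threshold.

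The genes whose log2 CPM ran most like each member over the 12 libraries were found among about 8878 genes with a symbol and a mean of at least 10 CPM. These values of Pearson's r are the highest of many and are given as a description, since all points share libraries and depth. SOD3 was most like SLC9A3R1 (r = 0.965) and GOLGA5 (0.962). GCLC was most like SPCS3 (0.938) and PCNP (0.898), and SOD2 most like PRPF19 (0.945) and VCP (0.928). For TXNRD1 these were TMEM229B (0.920) and RAB11FIP1 (0.889), and for NQO1 they were NOL4L (0.887) and CHID1 (0.868). HMOX1 had LARGE2 (0.895) and ADCK2 (0.840), GCLM had SLC25A12 (0.864) and UNC119 (0.830), and SOD1 had PDZD11 (0.904) and ABCD3 (0.853). CAT was followed by PAPSS1 (0.897) and SIL1 (0.893), and TXNIP by DHX35 (0.890) and DDR2 (0.854).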

How the data were processed

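Rabbit cornea RNA was sequenced in 12 libraries, made with a SMARTer mRNA kit per the labels' protocols. Per the file headers, each gene has in every library an estimated count and a value in FPKM, both computed by the authors. The submitters' processing notes name GRCm38 and mm10, a mouse build, while the deposited table places genes on rabbit sequences, so which build, aligner and counter served is not stated in the sources used. All counts were whole already. Of 29076 genes listed, 7628 were at 0 throughout. For 9 of the 10 members the gene identifier and symbol matched a RefSeq table of assembly mOryCun1.1, used for names only, and no sequence is printed. The identifier of the other member, SOD1, stood there under the symbol LOC100009313.

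Counts were scaled by TMM (factors 0.944 to 1.06) and filtered with filterByExpr, and 1 edgeR 4.0.16 quasi-likelihood fit with 4 group means covered 18171 genes (R 4.3.3). What edgeR terms the biological coefficient of variation was 0.578, as 1 common value over all genes tested. The spread behind it may be technical. A gene was called at a BH adjusted p below 0.05 over all genes tested, which was preferred to limma on log2(FPKM + 1) because the table held counts. For single members an exact permutation test was run over 15400 partitions, unadjusted. Named genes were the 10 members and, from each of 12 redox lists, any gene called and the 2 with the smallest p for any difference. One gene so named is not reported here. Alternatives were DESeq2 1.42.0, limma 3.58.1 at several pseudocounts and with array weights, other scalings and filters, fits of the compared groups only, a replicate block and omission of each library. Covariates for library set and size, omission of 3 retinal libraries, the 7 libraries alone and division by the count step were chosen after seeing the data. The members and lists were chosen with earlier results of these data known. Libraries carry no molecular identifiers, so floors cover counting error only.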

Additional observations from a re-analysis of the deposited data

How the results depend on the processing

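Under 30 alternative settings 231 of 233 counts of members called were 0, and the other 2 were the DESeq2 calls of SOD3 (1 for blue_light against GL and 1 for any difference among groups). Counts over all genes moved more, and the causes were not tested. With DESeq2 they were 29 for blue_light, 147 for GL and 87 for RL against control, 372 for blue_light against GL, 81 for blue_light against RL, 201 for GL against RL, 55 for the mean of the light groups and 262 for any difference. Array weights in limma gave 6, 120, 35, 126, 26, 135, 14 and 132 in that order. Without a filter edgeR gave 5 for blue_light against RL and 22 for any difference, and with a mean FPKM of at least 5 it gave 1 for RL against control, 15 for blue_light against GL and 1 for the mean. Limma on log2(FPKM + 1) gave 20 for blue_light against GL, 8 for blue_light against RL and 27 for any difference. With a pseudocount of 0.1 these were 14, 9 and 20, and RL against control gave 8. With a pseudocount of 5, GL against control gave 6, blue_light against GL 16, blue_light against RL 7 and the mean 1. Limma without a filter gave 1, 6 and 1 for blue_light, GL and RL against control, 6 for blue_light against RL, 23 for GL against RL and 26 for any difference. Fits of only the groups compared gave 7, 28 and 5 against control and 3 for GL against RL. Counts divided by the step gave 4 for blue_light against RL, and the set covariate gave 0 for blue_light against GL (edgeR, 18171 genes). The library size covariate gave 5 for GL against control, 2 for blue_light against GL and 6 for any difference. Without the 3 retinal libraries there were 1 for blue_light and 1 for GL against control, 0 for blue_light against GL, 1 for blue_light against RL, 2 for GL against RL, 1 for the mean and 0 for any difference. The 7 libraries alone gave 5 for GL and 9 for RL against control and 8 for GL against RL. Leaving out each library in turn gave 2 to 10 for blue_light, 3 to 21 for GL and 2 to 9 for RL against control, 3 to 22 for blue_light against GL, 2 to 5 for blue_light against RL, 5 to 25 for GL against RL (25 without RL 2 and 24 without GL 2), 2 to 9 for the mean and 5 to 25 for any difference, with 0 members each time.

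The replicate block gave 2, 11 and 3 for blue_light, GL and RL against control, 9 for blue_light against GL, 2 for blue_light against RL, 9 for GL against RL, 3 for the mean and 11 for any difference, with 0 members throughout. Of same-numbered pairs 3 of 18 correlated over 0.1 (median 0.0125, highest 0.235), beside 3 of 36 different-numbered pairs (median -0.00275, highest 0.133). Of the 12 libraries 5 correlated best with their own number. With so few pairs these values do not settle whether the numbers pair the libraries. HMOX1 had counts of 26 to 208, which stand for fewer fragments given the step of about 3.83 counts, and control libraries several-fold apart. Its intervals against control reach past 1.5 log2 in at least one direction in each light group.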
